A study of Mus musculus with 8 samples.

Results

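Osr1, the hedgehog ligand Shh, the hedgehog receptors and inhibitor Ptch1, Smo and Hhip, the transcription factors Gli1, Gli2 and Gli3, and the growth factor Fgf10 were followed as RNA through normal mouse prostate, prostatic intraepithelial neoplasia (PIN) and prostatic adenocarcinoma (PCa). These 9 genes were taken by symbol from a table of 27036 genes, and all 9 were among the 14034 genes with enough counts to be tested. Bulk RNA-seq was available for 3 WT, 3 PIN and 2 PCa libraries, each a mean over all cells in a piece of tissue. PIN and PCa tissue came from R26 mTmG/hAR:Osr1 Cre/+ animals. There, Cre driven by Osr1 turns on a floxed human androgen receptor (hAR) transgene and switches a membrane fluorescence reporter in Osr1-expressing cells and their descendants. The WT libraries came from R26 mTmG/+:Osr1 Cre/+ mice, matched for sex and age, so every group carried Osr1 Cre and the mTmG reporter, and WT lacked only the hAR allele. The mice were of mixed C57BL/6 and 129S1/SvImJ background, and PIN and PCa tissue was chosen under the microscope to hold mostly atypical or tumor cells. Osr1 was therefore measured only in animals that carry the Osr1 Cre allele, and whether that allele leaves both copies of Osr1 intact is not given in the sources used here. Likewise, the ages of the sequenced animals are not given in the sources used here, and the human transgene was not analysed here.

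Hedgehog signaling in the developing prostate runs from epithelium to mesenchyme. Shh binds Ptch1, which otherwise holds back Smo, and released Smo lets Gli2 and Gli3 act as activators rather than repressors of transcription. Ptch1, Gli1 and Hhip are themselves classic target genes of the pathway, and Hhip is a membrane protein that binds hedgehog ligands and limits the response. Fgf10, a mesenchymal ligand for the epithelial receptor Fgfr2, drives prostatic budding, and Osr1, a zinc finger factor of the odd-skipped family, marks intermediate mesoderm and urogenital tissue.

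The clearest difference among the 9 genes was that of Hhip, which fell in PCa against both WT and PIN to a combined 8 reads in the 2 tumors. Osr1 was below every WT and PIN value in both tumors but missed the threshold on the adjusted p. Shh, Gli1, Gli2 and Gli3 were close to the floor of detection in PCa 2 and nearer to WT in PCa 1. Smo and Ptch1 lay on opposite sides of the WT range in the tumors. Fgf10 was below that range in PCa 1 and inside it in PCa 2. None of the 9 genes passed the test between PIN and WT.

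Hhip and Ptch1, the called inhibitor and the receptor that did not move with it, are both targets of the pathway, so the letters just before their start sites are shown. These are the 250 bases upstream of the RefSeq start in GRCm38.p6, read 5′ to 3′ on the strand of the gene, with each GC box (CCGCCCC or its reverse complement GGGGCGG) in capitals. The first lies at chr8:80058009-80058258 and the second at chr13:63565736-63565985, both on the minus strand.
Hhip: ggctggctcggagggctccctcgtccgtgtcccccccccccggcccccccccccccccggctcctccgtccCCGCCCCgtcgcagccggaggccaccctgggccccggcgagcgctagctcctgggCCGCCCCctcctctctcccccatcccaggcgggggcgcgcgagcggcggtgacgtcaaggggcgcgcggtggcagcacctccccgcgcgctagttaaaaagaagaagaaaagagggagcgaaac
Ptch1: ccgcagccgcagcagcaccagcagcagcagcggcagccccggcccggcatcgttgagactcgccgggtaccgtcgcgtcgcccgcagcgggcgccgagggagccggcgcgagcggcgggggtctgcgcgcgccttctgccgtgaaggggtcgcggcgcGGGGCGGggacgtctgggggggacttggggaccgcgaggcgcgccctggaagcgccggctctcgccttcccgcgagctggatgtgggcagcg

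The Hhip window held 2 GC boxes and the Ptch1 window 1, and 76.0% and 78.4% of their bases were G or C. Windows were found for 6 of the 9 genes (Gli2, Smo, Hhip, Gli3, Ptch1 and Fgf10), and 5 of these 6, all but that of Smo, held a GC box, which 21.0% of all 32851 windows did. The GLI consensus GACCACCCA, searched on both strands, was in 0 of the 6 windows and in 0.225% of all windows. The palindromic androgen response element was likewise in 0 of the 6 and in 0.00913% of all. These counts describe letters in a short window, and a missing match leaves more distant sequence unread.

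Levels are given as CPM, counts scaled to library sizes that were adjusted by the trimmed mean of M-values (TMM). Calls required a log2 fold change beyond 1 in either direction together with an adjusted p below 0.05. These p came from the quasi-likelihood test of edgeR, adjusted by the Benjamini-Hochberg method over all tested genes. The libraries held 21751803 to 29730420 counts on genes, so that 3 counts, taken as the floor, correspond to between 0.0965 and 0.148 CPM. Across genes, the Spearman correlation between the 2 PCa libraries was 0.839, lower than among WT (0.923 to 0.961) or PIN (0.964 to 0.983). The library numbers in the labels form 3 series, with WT 1 alone, WT 2 with WT 3, and all PIN with all PCa. Should they mark batches, then a batch effect and a difference from WT cannot be told apart. PIN and PCa libraries share 1 series, so that comparison stands within it. Age may differ in it, since the paper reports PIN lesions from an earlier age than tumors. Stage and age could then not be told apart. Each library has a number of its own in the labels, and p-values measure the spread between these libraries only.

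Between PCa and WT, 1198 genes were called, 8.54% of those tested, and 1 of the 9 was among them. Of all tested genes 4.18% were called lower, as this one was, and 4.35% higher. Between PCa and PIN 803 genes were called, 5.72% of those tested, with 3.17% lower and 2.55% higher, and again 1 of the 9 was called, lower. On unscaled library totals the split of higher and lower calls moved from 611 and 587 to 2005 and 389 against WT, and from 358 and 445 to 786 and 321 against PIN. That scaling moved the median log2 fold change of all genes by 0.55 and 0.35, and by 0.19 in PIN against WT. Between PIN and WT 0 genes were called with edgeR (0%), although 492 had an unadjusted p under 0.05, none of them among the 9. DESeq2 called 39 genes and edgeR's newer quasi-likelihood method 1 gene in that comparison, and neither called any of the 9. The median log2 fold change of the 9 genes was 0.29 between PIN and WT, -1.53 between PCa and WT and -2.18 between PCa and PIN, where the median of all tested genes was -0.02, 0.01 and 0.07. In PCa against WT, 3 of the 9 (Osr1, Gli3 and Hhip) had both tumor values below all WT values, an arrangement seen in 19.6% of tested genes. Against PIN it was 5 of the 9, with Gli1 and Gli2 added, where 23.2% of tested genes showed it. The reverse, both tumors above all others, was seen in 0 of the 9, against 17.7% of tested genes for WT and 21.1% for PIN. PIN values were all below WT in 6.38% and all above in 6.48% of tested genes, and in 0 of the 9 either way. Both PCa comparisons share the same tumor libraries and are not independent of each other.

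**Figure D1:**
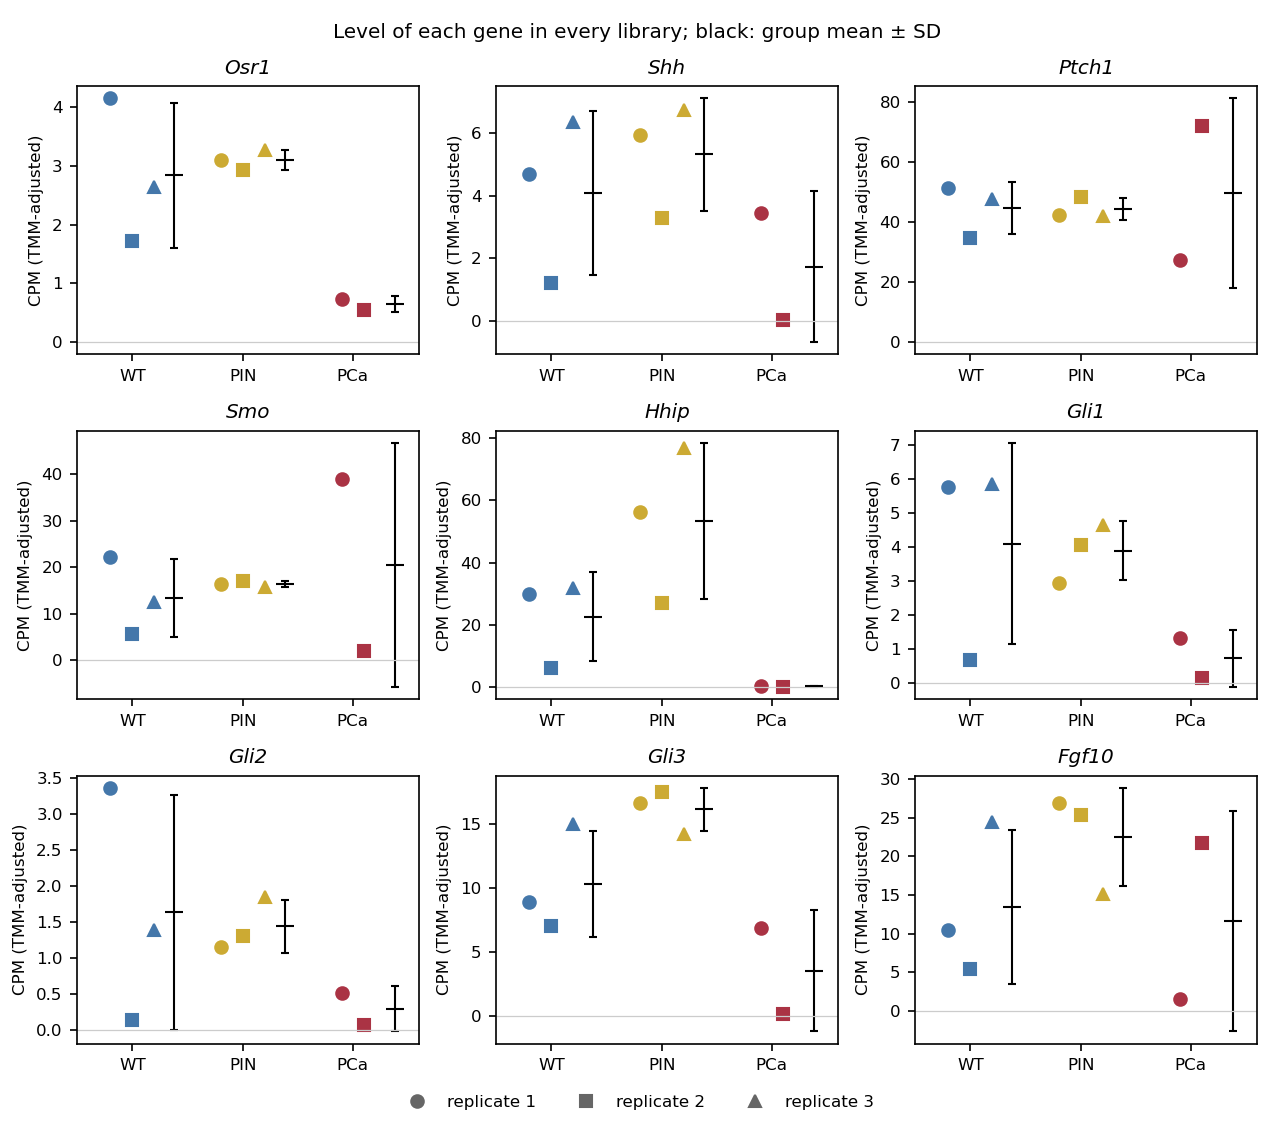
CPM (TMM-adjusted, linear axes) of each of the 9 genes in the 3 WT, 3 PIN and 2 PCa libraries, with the marker shape giving the replicate and the black bar the group mean ± SD. Osr1 and Hhip lie below all WT and PIN values in both tumors, whereas Smo runs from 1.99 CPM in PCa 2 to 39.1 in PCa 1.

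Osr1, on chromosome 12 of mm9 from 9581248 to 9588305 on the plus strand, was expressed at a low level throughout. It stood at 4.15, 1.72 and 2.64 CPM in WT 1, 2 and 3, at 3.10, 2.93 and 3.28 in PIN 1, 2 and 3, and at 0.740 and 0.549 in PCa 1 and 2. PIN values lay inside the WT range, and both tumors lay below every other library, at 26.1% and 19.3% of the WT mean. These values rest on 23 and 16 reads in the tumors and on 38 to 87 reads elsewhere.

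The log2 fold change of Osr1 was 0.13 ± 0.44 (SE) between PIN and WT, with an adjusted p of 1. In PCa it was -2.13 ± 0.54 against WT, with a 95% interval of -3.39 to -0.87 and an adjusted p of 0.0513. Against PIN it was -2.26 ± 0.54, with an adjusted p of 0.0536. The unadjusted p was 0.00474 and 0.00353, so Osr1 stood just outside the call in both. DESeq2 called Osr1 in both comparisons, with adjusted p of 0.00151 and 0.000708, and limma-trend did so with 0.0478 and 0.0428. The newer quasi-likelihood method, tried after the values were seen, called it as well, with 0.0410 and 0.0423. Without WT 2, the WT library with the lowest Osr1, edgeR's adjusted p was 0.0349 and 0.0338. Over all 17 alternatives the adjusted p ran from 0.00151 to 0.204 against WT and from 0.000708 to 0.180 against PIN, and the log2 fold change from -2.39 to -1.62 and from -2.47 to -1.90.

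Fewer Osr1-positive cells in a tumor and less Osr1 RNA per cell cannot be told apart in bulk tissue, and this holds for every gene described here. Summed CPM of 10 smooth muscle markers, stroma that surrounds normal prostatic glands, was 2450 to 6128 in WT, 3996 to 7230 in PIN and only 61.6 to 103 in PCa. Of these, 9 of 10 were called lower in PCa against WT, all but Smtn, and none was at 0 counts in any library. Fibroblast markers, also 10 genes, summed to 615 to 1386 in WT, 911 to 1210 in PIN, 858 in PCa 1 and 316 in PCa 2, and 0 of 10 were called. The luminal epithelial sum was 12128 to 37446 in WT and 13777 to 20729 in PIN, against 3766 to 6299 in PCa, with 1 of 10 called lower. That gene was Pbsn, the secreted probasin, at 6552 to 23968 CPM in WT and at 8.53 and 60.8 in PCa. Without it the luminal sum was 5576 to 13478 in WT, 6291 in PCa 1 and 3705 in PCa 2, so PCa 1 lay inside the WT range. The basal sum was 526 to 1168 in WT, 523 to 860 in PIN and 68.0 to 1199 in PCa, with 0 of 8 called. Both tumors were thus below all other libraries in the smooth muscle sum, but not in the fibroblast and basal sums nor in the luminal sum without Pbsn. Seminal vesicle secretory genes summed to 15916 CPM in WT 1, to as little as 0.634 in another WT library, to 56.3 to 96.4 in PIN and to 1263 to 4226 in PCa. Cycling genes summed to 527 to 560 CPM in PCa, 52.6 to 59.8 in WT and 53.5 to 114 in PIN, and 6 of 6 were called higher in PCa against WT. Leukocyte markers stood apart between the tumors, with a sum of 444 CPM in PCa 1 and 43.0 in PCa 2, against 59.7 to 142 in WT and 73.6 to 163 in PIN, and 1 of 8 tested was called higher against WT. Nerve and glia markers summed to 5.53 to 5.83 CPM in PCa, 8.93 to 33.7 in WT and 10.5 or more in PIN, with 1 of 5 tested called lower against WT. The part that these differences in tissue make-up play in the results below was not tested.

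**Figure D2:**
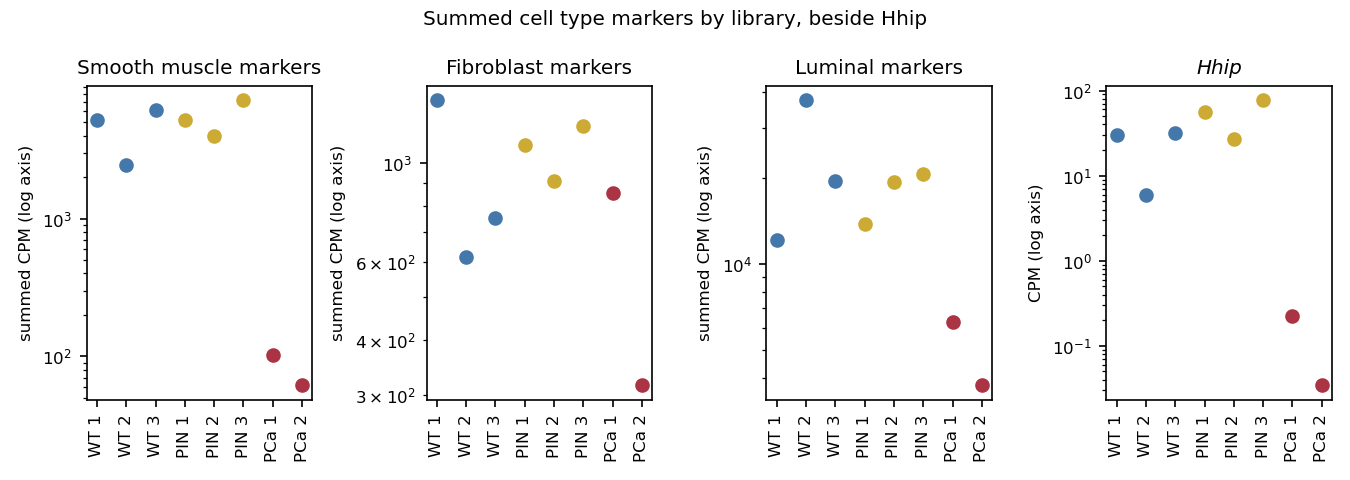
Summed CPM of 10 smooth muscle, 10 fibroblast and 10 luminal markers, and CPM of Hhip, in each library (log axes; blue WT, yellow PIN, red PCa). The smooth muscle sum is 61.6 to 103 in PCa and 2450 or more elsewhere, and Hhip lies at 0.225 CPM or less in PCa and 5.94 or more elsewhere.

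Among the ligands, Shh, on chromosome 5 from 28783355 to 28793641 on the minus strand, had 4.70, 1.22 and 6.37 CPM in the WT libraries and 5.94, 3.31 and 6.74 in PIN. PCa 1 held 3.44 CPM, inside the WT range, and PCa 2 held 0.0343 CPM, which was 1 read (exact Poisson 95% interval 0.000868 to 0.191 CPM, counting error only). PCa 1 was thus inside the range of the other libraries and PCa 2 below it, and the groups overlapped. The log2 fold change was 0.38 ± 1.14 in PIN against WT, -1.23 ± 1.33 in PCa against WT (adjusted p 0.595, 95% interval -4.33 to 1.86) and -1.61 ± 1.35 in PCa against PIN (adjusted p 0.528). Without PCa 1, leaving PCa 2 alone in its group and assumed to vary like the other groups, Shh was called at a log2 fold change of -6.71 and an adjusted p of 0.0213 against WT. Without PCa 2 the log2 fold change was -0.24, so 1 tumor library sets the value.

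Of the other hedgehog ligands, Ihh was at 1.29, 0.770 and 1.35 CPM in WT, at 5.26, 4.03 and 0.414 in PIN and at 0.611 and 2.30 in PCa, with a log2 fold change of 0.35 ± 0.99 in PCa against WT (adjusted p 0.851). Its groups overlapped. Dhh did not pass the filter, with 0.840 CPM at most.

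Ptch1, the ligand receptor, on chromosome 13 from 63610261 to 63674474 on the minus strand, had much the same level in WT and PIN. It stood at 51.4, 34.8 and 47.6 CPM in WT, 42.5, 48.5 and 42.0 in PIN, and 27.3 and 72.1 in PCa. PCa 1 was below and PCa 2 above all WT values, at 61.3% and 162% of the WT mean, so the group means hid opposite values. The log2 fold change was -0.01 ± 0.35 in PIN against WT, with a 95% interval of -0.82 to 0.80. In PCa it was 0.16 ± 0.39 against WT (adjusted p 0.828, 95% interval -0.74 to 1.06) and 0.17 ± 0.39 against PIN (adjusted p 0.845). Leaving out PCa 2 turned it to -0.69 against WT, and leaving out PCa 1 gave 0.70, and neither was called.

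Smo, the transducer that Ptch1 restrains, lies on chromosome 6 from 29685694 to 29711365 on the plus strand. It stood at 22.1, 5.62 and 12.5 CPM in WT, at 16.3, 17.1 and 15.7 in PIN, at 39.1 in PCa 1 and at 1.99 in PCa 2. The tumors lay on opposite sides of the WT range, at 291% and 14.8% of the WT mean, in the reverse order to Ptch1. Smo and Ptch1 were the 2 of the 9 genes with this arrangement, which 12.2% of tested genes showed. Smo had a log2 fold change of 0.62 ± 0.99 in PCa against WT (adjusted p 0.732) and 0.33 ± 0.99 in PCa against PIN (adjusted p 0.882). Its direction depended on the tumor and on the test. Without PCa 1 it was -2.74 against WT and called, with an adjusted p of 0.0484, without PCa 2 it was 1.56 and not called, and on the log scale of limma-trend with both tumors it was -0.38.

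**Figure D3:**
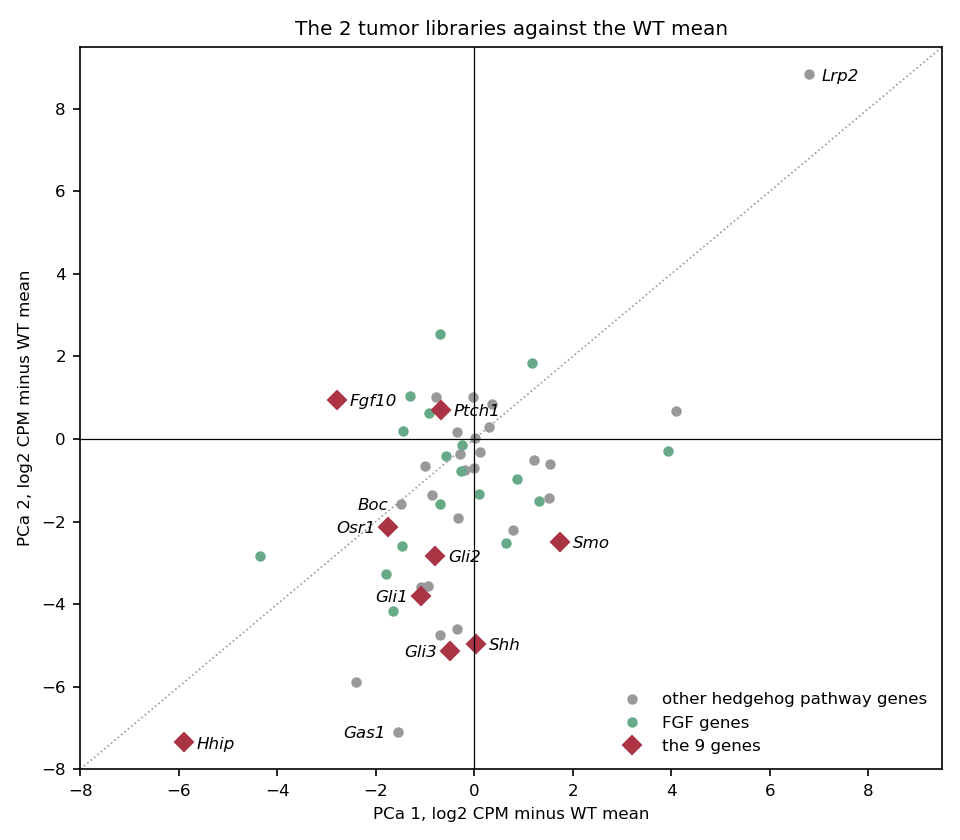
Difference of PCa 1 (x axis) and PCa 2 (y axis) from the WT mean in log2 CPM, for the 9 genes (red diamonds), other tested hedgehog pathway genes but 1 (gray) and FGF genes (green), with equal values on the dotted line. Hhip lies at -5.90 and -7.35 and Osr1 at -1.75 and -2.14, while Shh and Gli3 are near 0 in PCa 1 and at -4.97 and -5.14 in PCa 2.

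Hhip, the hedgehog-interacting inhibitor, on chromosome 8 from 82490014 to 82581905 on the minus strand, had 29.9, 5.94 and 31.8 CPM in WT and 56.2, 26.9 and 77.0 in PIN. In PCa 1 it had 0.225 CPM, from 7 reads, and in PCa 2 0.0343 CPM, from 1 read, which is below the floor of 3 counts. No tumor value came near the lowest WT or PIN value, and PIN values overlapped with WT although 2 of 3 were above all of WT.

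The mean CPM of Hhip was 174-fold lower in PCa than in WT (95% interval 88.1 to 402 from the counting error of the 8 tumor reads alone) and 411-fold lower than in PIN (209 to 953). The fitted log2 fold change, which for so few reads depends on the prior count, was -7.37 ± 1.16 against WT (adjusted p 0.0134) and -8.61 ± 1.21 against PIN (adjusted p 0.0144). In PIN against WT it was 1.24 ± 0.69, with a 95% interval of -0.36 to 2.85 and an adjusted p of 1. Either tumor alone gave the call, with log2 fold changes of -9.16 and -6.60 against WT. The call against WT was lost when only WT and PCa were fitted (adjusted p 0.0670), and the call against PIN was lost without PIN 3 (adjusted p 0.0544). Under the other alternatives it was kept in both comparisons, 16 of 17 in each. Hhip and the smooth muscle markers were low in the same 2 libraries, and Myh11, a smooth muscle myosin, was among the 3 genes with the profile most like that of Hhip. The part of smooth muscle content in the fall of Hhip was not tested.

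**Figure D4:**
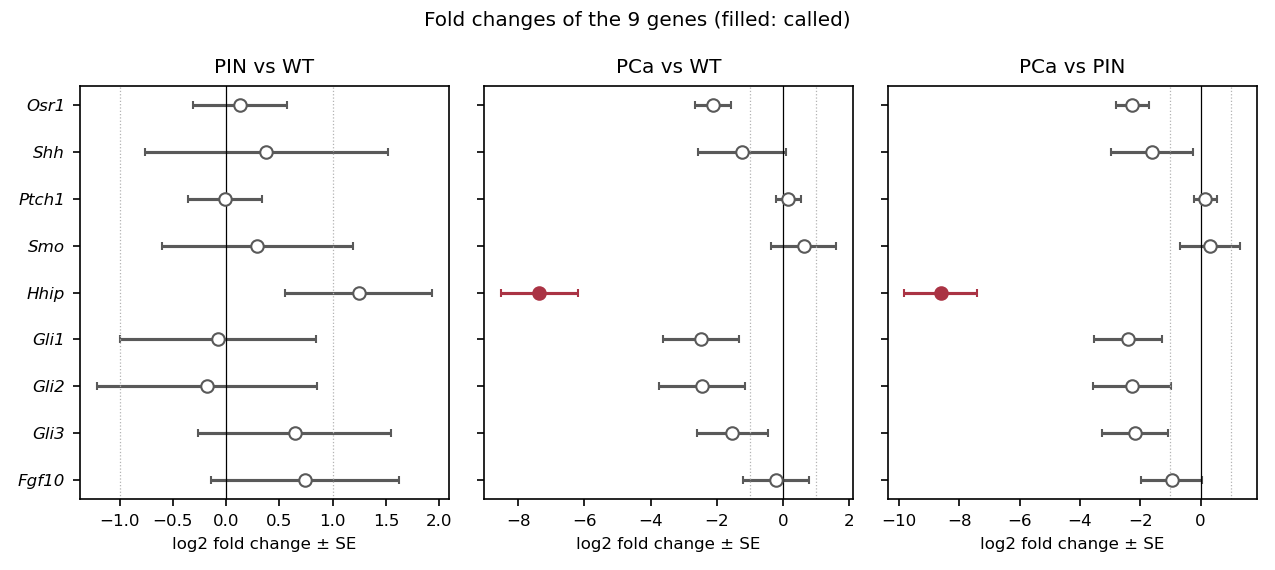
Log2 fold change ± SE of each gene for the 3 pairs of groups, filled where called, with dotted lines at -1 and 1. Hhip is the only filled point, at -7.37 and -8.61, and Osr1 lies at -2.13 and -2.26 with a smaller error than the 3 Gli genes.

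The Gli transcription factors carry the signal to the genome, Gli1 as an activator and a target, Gli2 mainly as an activator and Gli3 mainly as a repressor. Gli1, on chromosome 10 from 126766945 to 126778645 on the minus strand, was at 5.78, 0.680 and 5.86 CPM in WT, at 2.95, 4.06 and 4.67 in PIN, and at 1.32 and 0.137 in PCa. Both tumors lay below all PIN values, but PCa 1 lay above WT 2, so the groups overlapped. In PCa the log2 fold change was -2.48 ± 1.15 against WT (adjusted p 0.207) and -2.41 ± 1.14 against PIN (adjusted p 0.260). Against WT it was -4.85 without PCa 1 (adjusted p 0.0599) and -1.62 without PCa 2.

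Gli2, on chromosome 1 from 120730709 to 120950196 on the minus strand, was the lowest of the 9 genes in WT and PIN per length. It stood at 3.36, 0.136 and 1.39 CPM in WT, at 1.15, 1.31 and 1.85 in PIN, and at 0.515 and 0.0686 in PCa. WT 2 held 3 reads and PCa 2 held 2, so these libraries cannot be told apart at this depth. Its log2 fold change was -2.45 ± 1.30 in PCa against WT (adjusted p 0.267) and -2.27 ± 1.29 in PCa against PIN (adjusted p 0.341). Against WT it was -4.47 without PCa 1 and -1.64 without PCa 2, and neither was called.

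Gli3, on chromosome 13 from 15555068 to 15821859 on the plus strand, was at 8.95, 7.07 and 15.0 CPM in WT, at 16.6, 17.5 and 14.2 in PIN, at 6.92 in PCa 1 and at 0.206 in PCa 2. Both tumors lay below all WT values, PCa 1 by little and PCa 2 with 6 reads. Its log2 fold change in PCa was -1.53 ± 1.07 against WT (adjusted p 0.398) and -2.18 ± 1.10 against PIN (adjusted p 0.288). Without PCa 1 it was -5.61 against WT and called (adjusted p 0.00304), and without PCa 2 it was -0.56. In PIN against WT, Gli1, Gli2 and Gli3 had log2 fold changes of -0.08 ± 0.92, -0.18 ± 1.04 and 0.64 ± 0.91, each with an adjusted p of 1, and the 95% interval of Gli3 reached from -1.46 to 2.75.

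Fgf10, on chromosome 13 from 119458598 to 119580922 on the plus strand, was at 10.5, 5.39 and 24.5 CPM in WT, at 26.9, 25.3 and 15.2 in PIN, at 1.54 in PCa 1 and at 21.7 in PCa 2. PCa 1 was below every other library and PCa 2 was inside the ranges of WT and PIN, the opposite order to Shh, Smo and the Gli genes. Its log2 fold change was 0.74 ± 0.88 in PIN against WT, -0.21 ± 0.99 in PCa against WT (adjusted p 0.917, 95% interval -2.50 to 2.08) and -0.95 ± 1.01 in PCa against PIN (adjusted p 0.629). Leaving out PCa 2 gave -3.11 against WT with an adjusted p of 0.0824, and leaving out PCa 1 gave 0.70.

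Some libraries stood apart in these genes. WT 2 was the lowest of the WT libraries for 9 of the 9 genes, which it was for 43.4% of all tested genes, and it also had the lowest smooth muscle and fibroblast sums and the highest luminal and basal sums of the WT libraries. PCa 2 was below all WT values in 7 of the 9 and PCa 1 in 5, where 36.0% and 32.3% of tested genes were. Without WT 2 the log2 fold changes of Osr1, Shh and Smo in PIN against WT turned to -0.13, -0.05 and -0.08.

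Levels were compared between genes as TPM, in which each count is divided by the summed exon length of its gene and every library is scaled to the same total. In WT the order of mean TPM was Ptch1 at 20.9 ± 6.62 (SD, n = 3), Hhip at 14.8 ± 10.3, Smo at 11.2 ± 7.45, Fgf10 at 9.40 ± 7.78, Shh at 4.90 ± 3.49, Osr1 at 4.38 ± 2.21, Gli1 at 3.52 ± 2.66, Gli3 at 3.36 ± 1.76 and Gli2 at 0.763 ± 0.756. From Ptch1 to Gli3 each gene and the next in this order differed by less than the sum of their SDs, and only Gli2 stood apart from its neighbor. In PIN Hhip came first, at 36.6 ± 16.1 TPM, before Ptch1 at 22.9 ± 2.58, a gap within the sum of their SDs. Osr1 had 5.23 ± 0.118 TPM in PIN, and Gli2 was again last with 0.706 ± 0.152.

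The tumors had different orders. PCa 1 was led by Smo at 39.5 TPM and Ptch1 at 15.8, with Shh at 4.88, Gli3 at 2.75, and Osr1, Gli1 and Fgf10 between 1.28 and 1.40. PCa 2 was led by Ptch1 at 43.5 TPM and Fgf10 at 18.7, with Smo at 2.09 and Osr1 at 1.08, and the other 5 genes were at 0.144 or less. Hhip was at 0.175 and 0.0278 TPM, and in PCa 2 the order of Hhip, Gli2 and Shh cannot be resolved, since each rests on 1 or 2 reads.

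Of 30 other genes of hedgehog signaling, 27 were tested, and 3 of them were called in PCa against WT, 1 higher and 2 lower, where 8.54% of all tested genes were called. In PCa against PIN 3 were called, again 1 higher and 2 lower, beside 5.72% of all tested genes, and in PIN against WT 0 were called. Their median log2 fold change in PCa against WT was -0.32, and Lrp2, Boc and Btrc were the genes called.

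Lrp2, an endocytic receptor that can bind Shh, rose from 0.742, 1.04 and 0.439 CPM in WT to 85.9 and 355 in PCa, with 9.43, 0.930 and 3.88 in PIN. Both tumors lay far above all other libraries, and its log2 fold change of 8.22 ± 1.12 against WT (adjusted p 0.00955) was called under all 17 alternatives. Lrp2 was called against PIN too. That call was lost with the replicate block, with only the 2 groups fitted, and without WT 3, PIN 2 or PIN 3. Boc, a coreceptor of Shh, fell from 55.7, 95.7 and 50.1 CPM in WT to 22.8 and 21.7 in PCa, a log2 fold change of -1.59 ± 0.32 (adjusted p 0.0267), with 6 of 17 alternatives losing the call. Btrc, the ubiquitin ligase subunit that marks Gli proteins for processing, fell from 43.4, 32.8 and 42.7 CPM to 21.8 and 15.2, a log2 fold change of -1.10 ± 0.24 (adjusted p 0.0345). This call was lost in 10 of 17 alternatives, and on unscaled totals the log2 fold change was -0.56.

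Neither of the other coreceptors, Gas1 and Cdon, was called in any comparison by the main edgeR fit. DESeq2 called Gas1 in PCa against PIN. Gas1, which also binds Shh, stood at 62.5, 13.8 and 44.2 CPM in WT, at 11.5 in PCa 1 and at 0.171 in PCa 2, below all WT values, with a log2 fold change of -2.79 ± 1.33 (adjusted p 0.223). Without PCa 1 it was -7.82 and called (adjusted p 0.00736), and without PCa 2 it was -1.80. Cdon was at 26.4, 9.20 and 14.5 CPM in WT and at 26.3 and 3.22 in PCa, at -0.18 ± 0.80 (adjusted p 0.913). Sufu, the cytoplasmic restraint on Gli proteins, was at 28.3, 11.2 and 24.1 CPM in WT and at 19.4 and 39.8 in PCa, at 0.48 ± 0.43 (adjusted p 0.516).

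Scube2, a secreted protein that helps release lipid-bearing Shh, was at 16.8, 14.8 and 25.9 CPM in WT, at 25.8, 34.3 and 51.5 in PIN, and at 3.48 and 0.240 in PCa. Both tumors lay below all other libraries. It was called in PCa against PIN with an adjusted p of 0.0499, and 11 of 17 alternatives lost this call, among them each one that left out a WT or PIN library. Against WT its log2 fold change of -3.36 ± 0.96 had an adjusted p of 0.0698, and 4 of 17 alternatives, DESeq2 and limma-trend among them, called it.

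Of 18 further target genes, 14 were tested and 1 was called in PCa against WT, beside 8.54% of all tested genes. This was Tbx2, a T-box repressor, which fell from 80.1, 23.0 and 67.7 CPM in WT to 4.76 and 1.30 in PCa (log2 fold change -4.23 ± 0.84, adjusted p 0.0264). It was called in PCa against PIN too, where 8 of 17 alternatives lost the call, and 6 of 17 lost the call against WT. The median log2 fold change of these targets in PCa against WT was 0.37.

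In the FGF group around Fgf10, 18 of 20 genes were tested, and 4 were called in PCa against WT, 3 lower and 1 higher, where 4.18% and 4.35% of all tested genes were called lower and higher. Fgf1, a ligand with broad receptor range, fell from 166, 215 and 253 CPM in WT to 10.1 and 28.9 in PCa (log2 fold change -3.44 ± 0.48, adjusted p 0.0103), and 1 of 17 alternatives lost the call. Fgf7, the closest relative of Fgf10 and also a ligand of Fgfr2, fell from 5.39, 5.39 and 8.82 CPM to 2.25 and 0.994 (log2 fold change -2.01 ± 0.48, adjusted p 0.0434), and 12 of 17 alternatives lost this call. Unlike Fgf10, both ligands had the 2 tumors on the same side of WT.

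Spry1, an inhibitor of receptor tyrosine kinase signaling, fell from 46.6, 44.7 and 42.8 CPM in WT to 12.9 and 4.56 in PCa (log2 fold change -2.36 ± 0.44, adjusted p 0.0229), and 5 of 17 alternatives lost the call. Fgfr2, the receptor of Fgf7 and Fgf10, rose from 48.7, 28.7 and 60.6 CPM in WT to 98.7 and 158 in PCa (log2 fold change 1.48 ± 0.33, adjusted p 0.0360), with 8 of 17 alternatives losing the call. Fgfr1 was at 50.9, 26.0 and 37.4 CPM in WT and at 30.3 and 21.5 in PCa, a log2 fold change of -0.56 ± 0.31 (adjusted p 0.291). The receptor side thus held the 1 gene of this group called higher.

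Among 20 transcription factors of urogenital development, 14 were tested and edgeR called 0 in any comparison, where 8.54% of all tested genes were called against WT and 5.72% against PIN. Osr2, the relative of Osr1, was at 12.7, 2.63 and 13.7 CPM in WT, at 8.85, 10.5 and 9.53 in PIN, at 2.51 in PCa 1 and at 0 reads in PCa 2, where 3 counts would be 0.103 CPM. Its log2 fold change in PCa against WT was -2.94 ± 1.47 (adjusted p 0.242). Both tumors lay below all WT values for Osr1 and Osr2 alike. Without PCa 1, Osr2 was called at an adjusted p of 0.00936, and none of the other 16 alternatives called it against WT.

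The genes with the most similar course to each of the 9 were found from the root-mean-square difference between log2 CPM profiles over the 8 libraries, each centered on its own mean. For Osr1 these were Ngef, Mgll and Marveld1, at 0.160 to 0.166 log2 units. Hhip had its nearest profiles much further off, Kcng1, Myh11 and Rspo2 at 0.607 to 0.716. The nearest to Ptch1 was Tmed1 at 0.0806, to Smo Shc2 at 0.141, to Gli1 Nr2f1 at 0.238, to Gli3 Slc39a8 at 0.238, to Gli2 Susd2 at 0.249, to Shh Slc4a3 at 0.278 and to Fgf10 Wipf3 at 0.307. Among the 9 genes themselves the closest pairs were Gli1 with Gli2 at 0.462 and Shh with Gli3 at 0.567, and Hhip and Ptch1 were the farthest apart at 3.40.

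**Figure D5:**
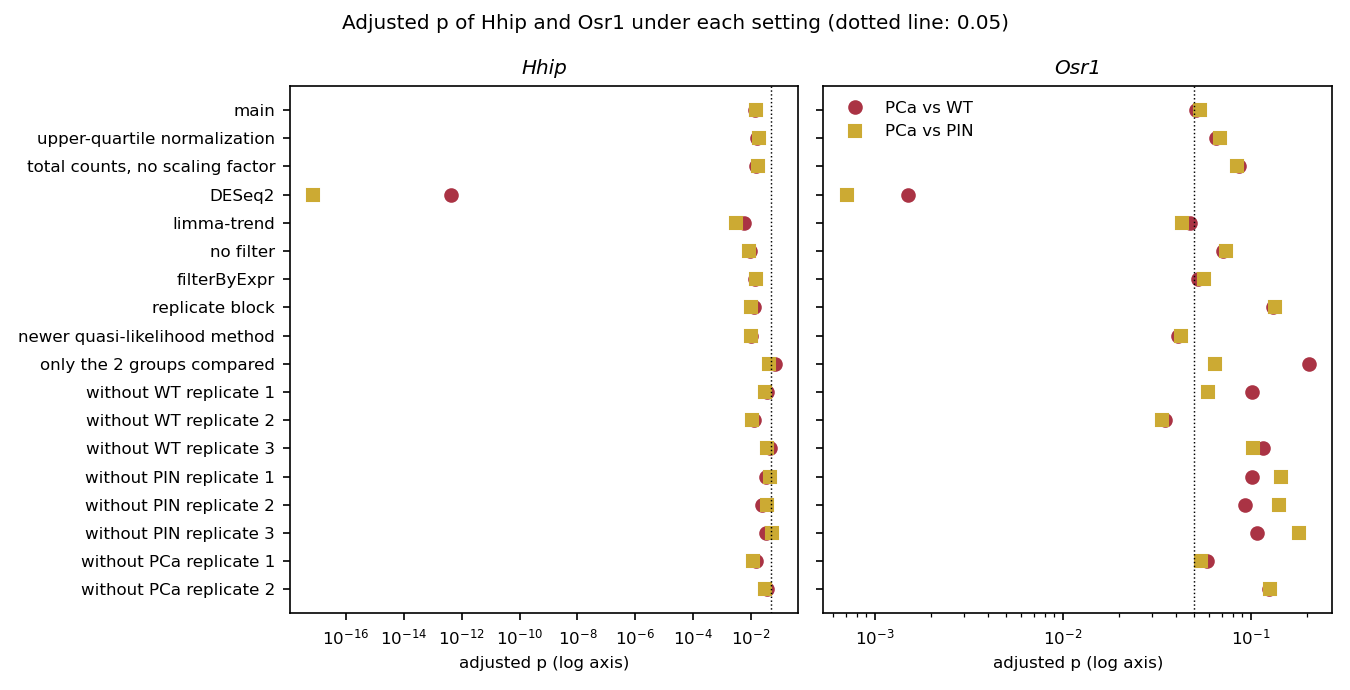
Adjusted p (log axis) of Hhip and Osr1 in PCa against WT (red circles) and PCa against PIN (yellow squares) under the main setting and 17 alternatives, with the threshold of 0.05 dotted. Hhip is past the threshold in 16 of 17 alternatives in each comparison, while Osr1 lies close to it, from 0.00151 to 0.204 against WT.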

How the data were processed

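RNA of fresh WT, PIN and PCa prostate was depleted of ribosomal RNA and sequenced as paired ends. The authors trimmed reads with cutadapt 1.9.1, aligned them to mm9 with HISAT2 2.1.0 and deposited raw HTSeq 0.6.1 counts per gene, with the summed exon length as another value, used here for TPM. The strand setting and annotation version are not given in the sources used here, so overlapping genes cannot be told apart.

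Counts were fitted in R 4.3.3 with edgeR 4.0.16, all 8 libraries in 1 model of 3 groups, with TMM factors, genes above 1 CPM in at least 2 samples, a log2 fold change beyond 1 and a Benjamini-Hochberg adjusted p under 0.05 for a call. The test, TMM, the filter and the thresholds follow the study's methods, which name TPM as the input and do not state 1 model for all groups. The study also kept only results shared by TMM and upper-quartile factors, a rule not applied here. Under upper-quartile factors Hhip keeps both calls, while Btrc and Fgf7 lose theirs against WT and Scube2 against PIN. The common biological coefficient of variation was 0.489. Intervals of fold changes are 95% intervals from the model, and Poisson intervals and floors cover counting error only. The steps were tested on simulated data. Alternatives used upper-quartile factors, unscaled totals, DESeq2 1.42.0, limma-trend 3.58.1 with a prior count of 2, other filters, 2 groups only, a replicate block, and each library left out. The 9 genes and all lists were chosen with earlier results of these data known. Genes named beyond the 9 are list genes called in any comparison (up to 6 per list), 11 default ligands, receptors and relatives, and the 3 most alike profiles per gene. Of these, 1 gene is not reported here. Upstream sequences are from RefSeq (GRCm38.p6), and gene positions are mm9.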

Additional observations from a re-analysis of the deposited data

How the results depend on the processing

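Calls among the 9 genes, the other hedgehog genes and all genes were counted again under 17 alternatives. Fold changes of the 9 genes and of the named list genes were refitted under them as well. Among these alternatives, edgeR's newer quasi-likelihood method was chosen after seeing the data. Calls were also counted with no limit on the fold change, which moved none of the counts by over 1.5 times. Of the 9 genes, 0 were called in PIN against WT under any setting. In PCa against WT the count of 1 (Hhip) was 2 (with Osr1) under DESeq2, limma-trend and the newer method, 0 with only the 2 groups fitted, and 1 to 4 when a library was left out. In PCa against PIN it was 2 under the same 3 methods and 0 to 4 with a library left out. The 4 (Gli3, Hhip, Shh and Smo) came without PCa 1, and the 0 without PIN 3. Of the other hedgehog genes, the 3 called against WT became 5 with DESeq2, 1 with the replicate block, 1 with 2 groups and 1 to 11 with a library left out. Against PIN the 3 became 1 on unscaled totals, 9 with DESeq2, 0 with the block, 0 with 2 groups and 0 to 10 with a library left out. The highest counts came without PCa 1. Over all genes, the 1198 called against WT became 2394 on unscaled totals (389 lower, against 587 of 1198), 2487 with DESeq2, 413 with the block, 130 with 2 groups and 347 to 2477 with a library left out. The 803 called against PIN became 1984, 151, 388 and 78 to 2251 under the last 4. Why these counts differ was not tested.

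The following fold changes changed sign under some alternative. In PIN against WT, Gli1 was 0.033 on unscaled totals, 0.39 in limma-trend, 0.56 with the block and -0.58 to 0.27 with a library left out. Gli2 was 0.54, 0.63 and -0.72 to 0.90 under the last 3. Ptch1 was 0.038 with upper-quartile factors, 0.17 on unscaled totals, 0.0015 with DESeq2, 0.0078 in limma-trend and -0.16 to 0.11 with a library left out. With a library left out, Osr1 ran from -0.13 to 0.51, Shh from -0.055 to 0.85 and Smo from -0.077 to 0.86. In PCa against WT, Smo was -0.38 in limma-trend, -0.0073 with the block and -2.74 to 1.56 with a library left out, Fgf10 was 0.21 on unscaled totals and -3.11 to 0.70, and Ptch1 was -0.69 to 0.70. Ihh was -0.27 with the block and -0.88 to 1.02, Cdon was 0.37 on unscaled totals and -2.36 to 0.67, and Sufu was -0.11 to 0.92. In PCa against PIN, Smo was -0.87 in limma-trend, -0.73 with the block and -3.03 to 1.27, and Ptch1 was -0.68 to 0.72.

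Whether replicate numbers pair the samples could not be settled. Between groups, residual correlations ran from -0.0562 to 0.284 for same-numbered libraries and from -0.284 to 0.164 for differently numbered ones. Outside their group, 5 of 8 libraries correlated best with their own number. Residuals were taken from group means, so those of PCa 1 and PCa 2 mirror each other (correlation -1). The block kept the call of Hhip in both comparisons. Genes with few reads in PCa 2 (1 for Shh and Hhip, 2 for Gli2, 4 for Gli1, 6 for Gli3) are limited by depth, and all PCa values by the number of tumors.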
